A study of Mus musculus with 18 samples.

Results

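The report concerns 3 of the 17 arrays with values in a series of 18, in which primary mouse B-cell lymphoma cells were profiled on Affymetrix arrays. They are the arrays labelled ADR 5 d of lymphoma 4936, big outgrowth of lymphoma 5043 and small outgrowth of lymphoma 5043. The arrays were chosen by their measured values, because all 3 stood apart from the rest of the series, so every statement on how they differ from the other arrays of lymphomas 4936 and 5043 is a description and carries no test. The comparison set was the other 8 arrays with values of these lymphomas, 5 of 4936 and 3 of 5043, and the 6 arrays of lymphoma 4146 are given beside them.

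All cells came from lymph node lymphomas of Eµ-myc mice on a C57/Bl6 background, in which an immunoglobulin enhancer drives the Myc oncogene in B cells. All were null for Suv39h1, which encodes a histone H3 lysine methyltransferase of heterochromatin, and all were transduced by retrovirus with Bcl2, an inhibitor of apoptosis, and with Suv39h1-ERT2, a fusion protein activated by 4-hydroxytamoxifen (4-OHT). Each lymphoma was followed through the same steps. The groups were 5 days of adriamycin (ADR, a DNA-damaging drug; n = 3), 5 days of ADR with 4-OHT (n = 3), the outgrowth after a further 14 days without drug of ADR-treated cells (n = 2) and of cells given both compounds, sorted by size into big (n = 3) and small (n = 3) cells, and untreated cells (n = 3). No group received 4-OHT alone, and each lymphoma gave 1 array per group. The outgrowth array of 5043 after ADR alone held no values and is labelled as having failed quality control.

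The transcription factor p53 is stabilised by DNA damage and switches on genes that arrest the cell cycle, such as Cdkn1a, that repair DNA, that kill the cell, and that feed back on p53 itself, such as Mdm2. The Cdkn2a locus gives rise to p16INK4a, an inhibitor of the kinases CDK4 and CDK6, and to p19ARF, which blocks Mdm2. Its neighbour Cdkn2b encodes a related inhibitor. In Eµ-myc lymphomas the ARF and p53 branch is a well-known barrier to Myc-driven growth, and loss of either is often selected. Afp encodes alpha-fetoprotein, a plasma protein of the fetal liver and yolk sac.

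A deviation is the log2 signal of an array minus the median of that probe set over the arrays with values of the same lymphoma. A gene was counted when it deviated by at least 1, that is 2-fold, with the same sign on all 3 arrays. Among 17517 autosomal genes, 306 were higher (1.75% of the genes) and 115 were lower (0.657%). Both shares describe genes picked out by the same deviations, and nothing was read from them. In lymphoma 5043 the 2 arrays are among 5, so a gene higher on both takes its median from the highest of the other 3 arrays there, and by construction no other array of 5043 can share its deviation. Every lymphoma has the same median for a probe set in the deposited values, so a range of levels over the 8 other arrays sets out distances from that shared median, not absolute levels of different lymphomas.

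The arrays' labels were first read against sex-linked genes. Xist, the RNA that coats the inactive X chromosome in female cells, had a log2 signal of 11.97, 12.26 and 12.07 on 4936 ADR 5 d, 5043 big outgrowth and 5043 small outgrowth, against 5.89 to 8.99 on the other arrays of 4936 and 5.55 to 6.27 on those of 5043. The 8.99 belonged to the big outgrowth of 4936, and the next highest of the 8 was 6.34. Xist ran from 2.78 to 7.85 on the 6 arrays of 4146. The Y-linked Kdm5d and Uty were at or under 3.68 on all 17 arrays, Eif2s3y reached 5.88 on the big outgrowth of 4936 and was at or under 4.06 elsewhere, and Ddx3y was not measured here. Arrays that carry 1 lymphoma number therefore did not share 1 Xist level.

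Immunoglobulin genes, whose variable segments are rearranged in the founding B cell of a clone, also differed within a lymphoma number. Of 20 measured, 4 were higher on all 3 arrays and 1 was lower, beside 1.75% and 0.657% of all autosomal genes. The 20 include constant regions and Igll1, which are not variable segments. Iglv1, a lambda light chain variable segment, had 6.24, 11.51 and 9.79 on the 3 arrays, against 13.51 to 14.42 on the other arrays of 4936 and 13.79 to 13.99 on those of 5043. A further Iglv1 probe set deviated by -4.00, -1.42 and -1.49 on the 3 arrays. Another deviated by -0.45, -1.91 and -2.62, so it did not pass the rule on 4936 ADR 5 d. Igkv8-30, a kappa variable segment, had 11.03, 10.95 and 10.39 on the 3 arrays, against 5.27 to 6.73 and 6.30 to 6.32. Igkv14-111 had 8.09, 7.47 and 7.52, against 3.07 to 3.99 and 3.58 to 3.86. The kappa locus probe set Igk and the constant region Ighg3 were the other higher ones, with smallest deviations of 1.36 and 1.28. The 3 arrays and the others did not overlap for any of these 5 genes, but the genes were picked by these same deviations. In 5043 the counting rule alone fixes this, so the lack of overlap is no separate evidence. Ighv14-2, a heavy chain variable segment, deviated by 4.67 on 4936 ADR 5 d and by 0.21 and 0.00 on the arrays of 5043. Whether the 3 arrays come from other cells than their labels say was not tested, and the tests of conditions at the end are given without and with them.

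The label gives B-cell lymphoma, and 3 general genes of B cells and leukocytes were not below the range of the other 8 arrays on any of the 3. These 3 were picked with their values in view, and other B-lineage genes, given further on, deviated in both directions. Of 23 measured early B-lineage genes 4 were lower and 1 higher on all 3 arrays. Of 26 mature B-lineage genes 1 was lower and 5 higher, beside 0.657% and 1.75% of all autosomal genes. Cd79b, a signalling chain of the B-cell receptor, had 12.09, 11.06 and 10.62, against 10.54 to 11.09 on the other 8 arrays. Ptprc, the leukocyte antigen CD45, had 12.64, 12.26 and 12.37, against 11.53 to 12.57, and Ebf1, a transcription factor of B-cell commitment, had 8.42, 7.83 and 7.23, against 6.72 to 7.63. The difference between 3′ and 5′ probe sets, a sign of RNA quality, lay within the range of the 8 other arrays on all 3 for Tfrc. For Actb it was 0.56 on 4936 ADR 5 d, against 1.17 to 1.81 on the 8, and for Gapdh 0.80 on 5043 big outgrowth, against 0.37 to 0.67. Their part in the deviations was not tested.

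The sequence of 1 start-site window of Cdkn1a is shown here because the gene is the best-known target of p53 and was lower on all 3 arrays. The table holds a further Cdkn1a window (chr17:29093519-29093818), which had 0 half-sites. The window shown (chr17:29090729-29091028, plus strand) holds 300 bases around an annotated start, mostly before it, in RefSeq's GRCm38.p6 build, and capitals mark p53 half-sites on either strand.
Cdkn1a: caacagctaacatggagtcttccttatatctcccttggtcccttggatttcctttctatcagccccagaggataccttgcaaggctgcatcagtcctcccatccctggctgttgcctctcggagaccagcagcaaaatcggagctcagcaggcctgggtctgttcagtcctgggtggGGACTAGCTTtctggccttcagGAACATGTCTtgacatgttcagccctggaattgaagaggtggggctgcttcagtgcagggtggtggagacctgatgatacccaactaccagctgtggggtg
A p53 half-site occurred in a window of 8 of the 82 lower genes with windows (9.76%) and 23 of 242 higher genes (9.5%), against 8.54% of 13918 autosomal genes. Higher and lower genes had more windows each than all genes, 1.44 and 1.41 against 1.25. The motif was chosen after the values were seen, and a match is a description of letters, not of a bound site.

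Each of the 3 arrays had more deviating genes than any other array. The number of autosomal genes at least 1 from the lymphoma's median was 1460 on 4936 ADR 5 d, 1200 on 5043 big outgrowth and 1003 on 5043 small outgrowth, against 115 to 570 on the 8 other arrays (median 411) and 174 to 735 on the arrays of 4146. The 735 belonged to ADR+4-OHT 5 d of 4146.

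**Figure D1:**
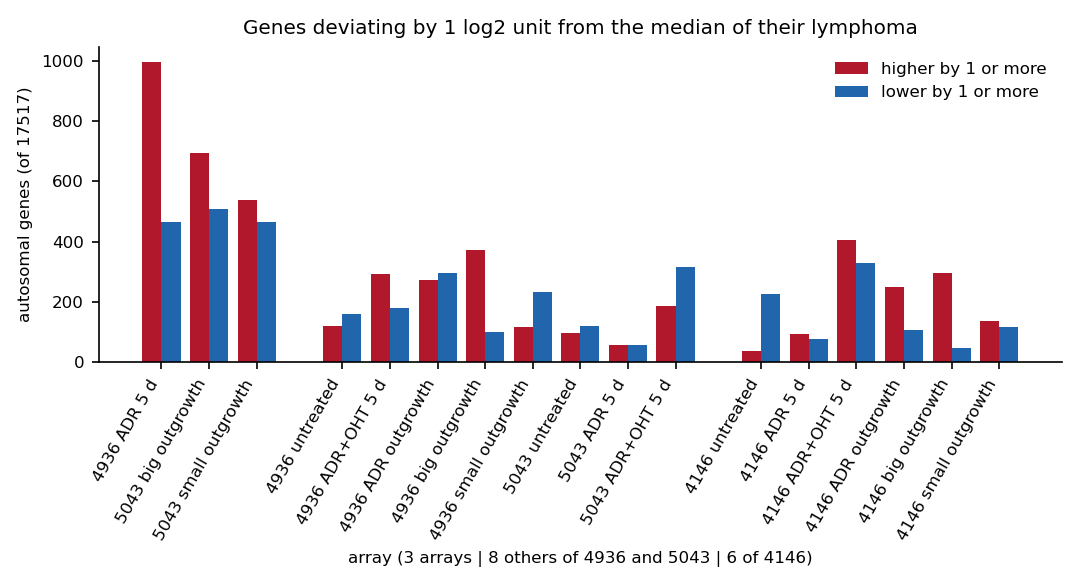
Autosomal genes at least 1 log2 unit above (red) or below (blue) the median of their lymphoma, by array, with the 3 arrays at the left. The 3 arrays had 538 to 995 higher and 465 to 507 lower genes, and on the other arrays neither number passed 405.

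The 3 arrays were set against each other, which is a description only, since they were chosen by these same values. Deviations of 4936 ADR 5 d correlated across genes with those of 5043 big outgrowth (Pearson r = 0.53) and of 5043 small outgrowth (r = 0.46), which share no array in their medians. Both arrays of 5043 had r = 0.78 with each other but share a baseline. Genes are not independent replicates, and no p is given. No r was computed for other pairs of arrays, so these values have no reference. Of the genes deviating by at least 1, 553 did so the same way on 4936 ADR 5 d and 5043 big outgrowth (37.9% of the one and 46.1% of the other) and 29 in opposite ways. With 5043 small outgrowth the numbers were 487 and 57.

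**Figure D2:**
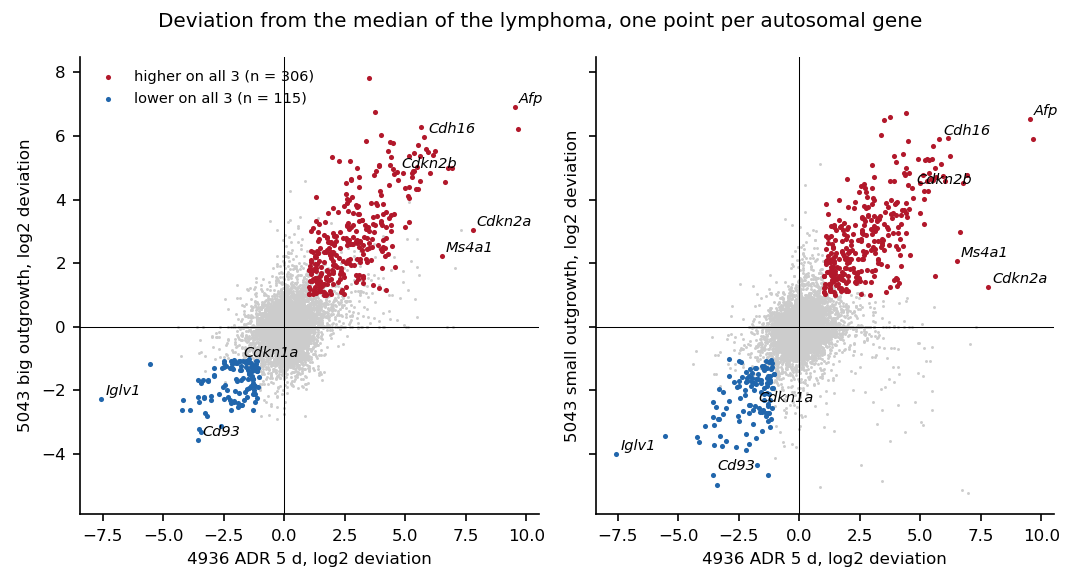
Deviation on 4936 ADR 5 d (x axis, log2) against that on the 2 outgrowth arrays of 5043 (y axes, log2), 1 point per autosomal gene, with the 306 higher genes in red and the 115 lower genes in blue. The colours follow from the rule, and Afp (9.52, 6.90 and 6.53) and Iglv1 (-7.55, -2.28 and -4.00) lie near the ends.

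Deviations of the higher genes were larger than those of the lower genes. The smallest of the 3 deviations had a median of 2.0 over the 306 higher genes and -1.31 over the 115 lower genes. It reached 2 in 153 higher and 23 lower genes and 4 in 37 higher genes and 0 lower ones. On the 3 arrays, 295 higher and 112 lower genes were clear of every other array of their own lymphoma. For the big and small outgrowth arrays among the 3, the counting rule alone fixes this. Only the ADR array could have overlapped the others of its lymphoma, and no share over all autosomal genes is set beside these counts. They are therefore no separate evidence. The midpoint of all deposited values was 4.86, and signals below it may be background. In 155 higher genes the 8 other arrays had a median below this level, and 25 lower genes were below it on all 3 arrays. Among genes nearest the threshold, Cdk5rap1 (smallest deviation 1.0) and Tmem43 (-1.01) were counted, and Deptor (0.99) and Rasgef1a (just short of -1) were not.

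**Figure D3:**
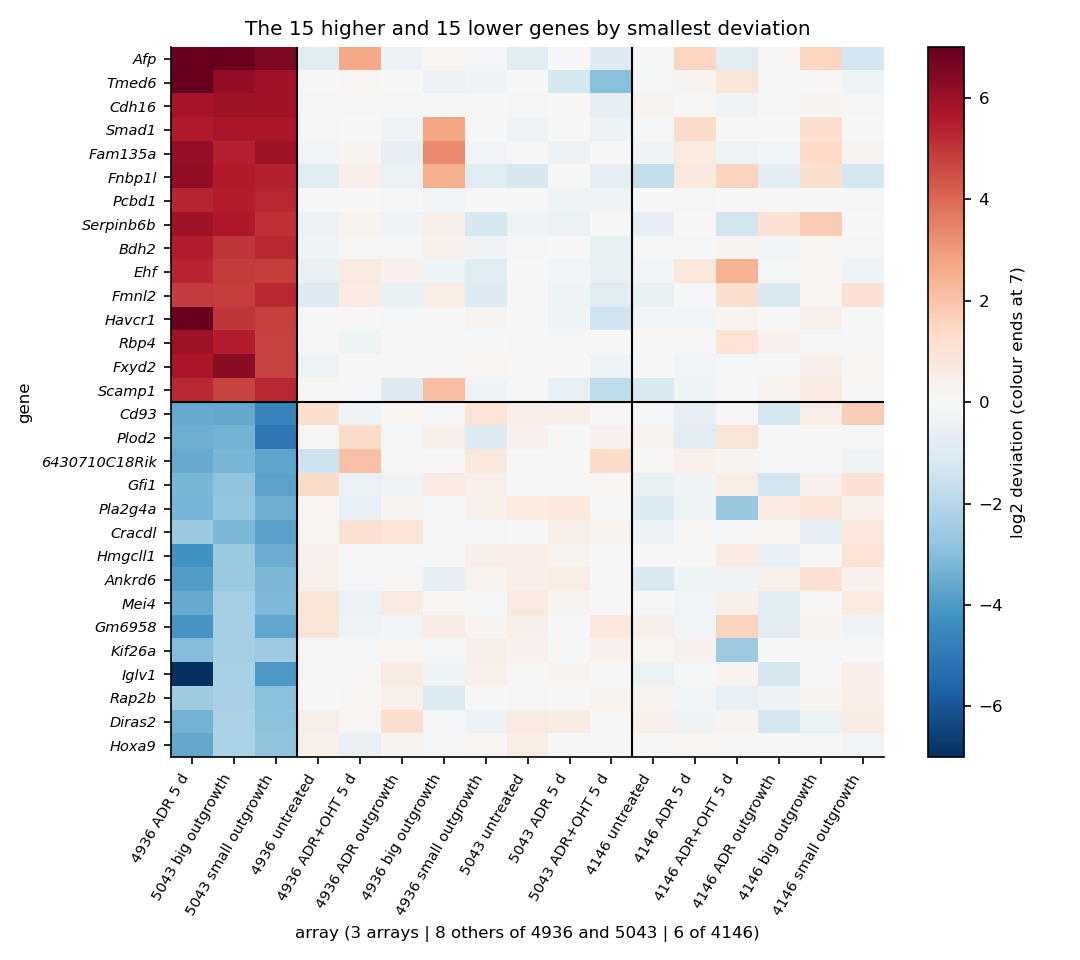
Deviation (log2, colour) of the 15 higher and 15 lower genes with the largest smallest deviation, in rows, on the 17 arrays with values, in columns, with the 3 arrays at the left. Within a row the sign is the same on the 3 arrays while the size can differ by several units, as for Afp, Tmed6 and Iglv1, and Smad1, Fam135a, Fnbp1l and Scamp1 also have colour on the big outgrowth of 4936.

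Afp led the higher genes. Its log2 signal was 14.72 on 4936 ADR 5 d, 12.10 on 5043 big outgrowth and 11.74 on 5043 small outgrowth. On the other arrays of 4936 it was 7.94 after ADR+4-OHT, 4.82 in the ADR outgrowth, 5.32 in the big and 5.08 in the small outgrowth and 4.47 untreated. In 5043 it was 5.20 after ADR, 4.29 after ADR+4-OHT and 4.47 untreated. Within each lymphoma the arrays that stood apart were the highest by a wide margin, an order that in 5043 follows from the counting rule. ADR+4-OHT 5 d was the next highest in 4936. Of 5 Afp probe sets 3 gave smallest deviations of 6.53, 5.93 and 5.72, and the other 2 lay below 4.86 on all 11 arrays.

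Several of the genes that followed Afp are known from kidney tubule, liver or other epithelia. Tmed6, a member of the p24 family of secretory cargo proteins, had 12.90, 9.47 and 9.15, against 0.35 to 3.40 on the 8 others. Cdh16, a cadherin of kidney tubules, had 10.22, 10.40 and 10.34, against 3.74 to 4.54. Havcr1, an epithelial surface protein known as KIM-1 in injured kidney, had 10.66, 8.74 and 8.49, against 2.36 to 3.93. Both sets of arrays were clear of each other for all 3 genes, which were named for their large deviations.

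Fxyd2, a regulatory subunit of the sodium pump in kidney, had 8.96, 9.62 and 8.05, against 2.97 to 3.47. Rbp4, the plasma carrier of retinol made by liver, had 10.24, 9.82 and 9.05, against 4.03 to 4.36. Ehf, an ETS transcription factor of epithelia, had 9.33, 8.89 and 8.82, against 3.12 to 4.63. Pcbd1, an enzyme of tetrahydrobiopterin recycling, had 10.86, 10.99 and 10.77, against 5.18 to 5.56. These genes were named for their large deviations on the 3 arrays, so the gap to the other 8 comes with the choice. Among them, the values on the 3 arrays lay closest together for Pcbd1 and furthest apart for Fxyd2.

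Most other markers of liver and kidney were not counted. Of 19 measured hepatocyte markers 2 were higher, beside 1.75% of all autosomal genes. They were Rbp4 and Foxa3, a forkhead factor of liver (7.21, 6.93 and 6.34, against 3.58 to 4.12). The list's median deviation was -0.02, 0.18 and 0.00 on the 3 arrays, against -0.04 to 0.05 on the 8 others. Alb, the main plasma protein of liver, was 4.00, 4.45 and 3.74, against 3.56 to 3.84. A list of 16 kidney tubule genes, put together after the values were seen, had 6 higher members, beside 1.75% of all autosomal genes, a count with no weight since the list was built with high genes in view. They include Enpep, Slc47a1 and Hao2, while Lrp2, Umod and Slc12a1 were under 4.86 on all 3 arrays. Of 10 epithelial markers Epcam alone was counted (5.45, 6.02 and 6.29, against 3.72 to 4.44). Fewer cells of a type and less RNA per cell cannot be told apart in such bulk samples.

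Smad1, a transducer of BMP signals, had 9.12, 9.31 and 9.27, against 3.16 to 6.37, the 6.37 being the big outgrowth of 4936. Fnbp1l, which links membrane curvature to actin, had 11.20, 10.51 and 10.33, against 3.85 to 7.48, again with the big outgrowth of 4936 highest. Fam135a (9.42, 8.69 and 9.22, against 2.66 to 6.59) and Scamp1, a protein of recycling vesicles (9.99, 9.43 and 10.01, against 2.93 to 6.90), had the same order. The big outgrowth of 4936 was thus the array nearest to the 3 for these genes, as it was for Xist. The other leading genes were Serpinb6b, Bdh2 and Fmnl2, with smallest deviations of 5.13, 5.03 and 4.84.

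Cdkn2a was higher on all 3 arrays but not to the same extent. The gene lies at chr4:89274473-89294619 and had 1 probe set, which cannot tell p16INK4a from p19ARF transcripts. Its log2 signal was 13.87 on 4936 ADR 5 d, 9.12 on 5043 big outgrowth and 7.34 on 5043 small outgrowth. In 4936 the others had 7.80 after ADR+4-OHT, 3.88 in the ADR outgrowth, 8.61 in the big and 4.26 in the small outgrowth and 4.35 untreated. In 5043 they had 5.61 after ADR, 3.21 after ADR+4-OHT and 6.08 untreated. Within each lymphoma the arrays did not overlap, which in 5043 follows from the counting rule. The array 5043 small outgrowth lay only 1.26 above its lymphoma's median. Its 7.34 was below the 7.80 and 8.61 of ADR+4-OHT and big outgrowth of 4936, so the 3 arrays overlapped the 8 others.

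Cdkn2b, at chr4:89306289-89311032, was even: 9.65, 9.86 and 9.35 on the 3 arrays, against 4.46 to 5.35 on the others of 4936 and 4.28 to 4.99 on those of 5043. Mtap, a metabolic enzyme gene on the other side of Cdkn2a at chr4:89137370-89181090, was not counted, with 10.56, 9.95 and 10.48, against 9.89 to 10.37 on the 8. Of 11 measured CDK inhibitors and neighbours of Cdkn2a these 2 inhibitors were higher and Cdkn1a lower, beside 1.75% and 0.657% of all autosomal genes. No Polycomb or other listed regulator of Cdkn2a was counted in 19 measured, and Id1 (7.52, 6.84 and 5.81, against 4.46 to 6.98) came nearest among the higher.

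**Figure D4:**
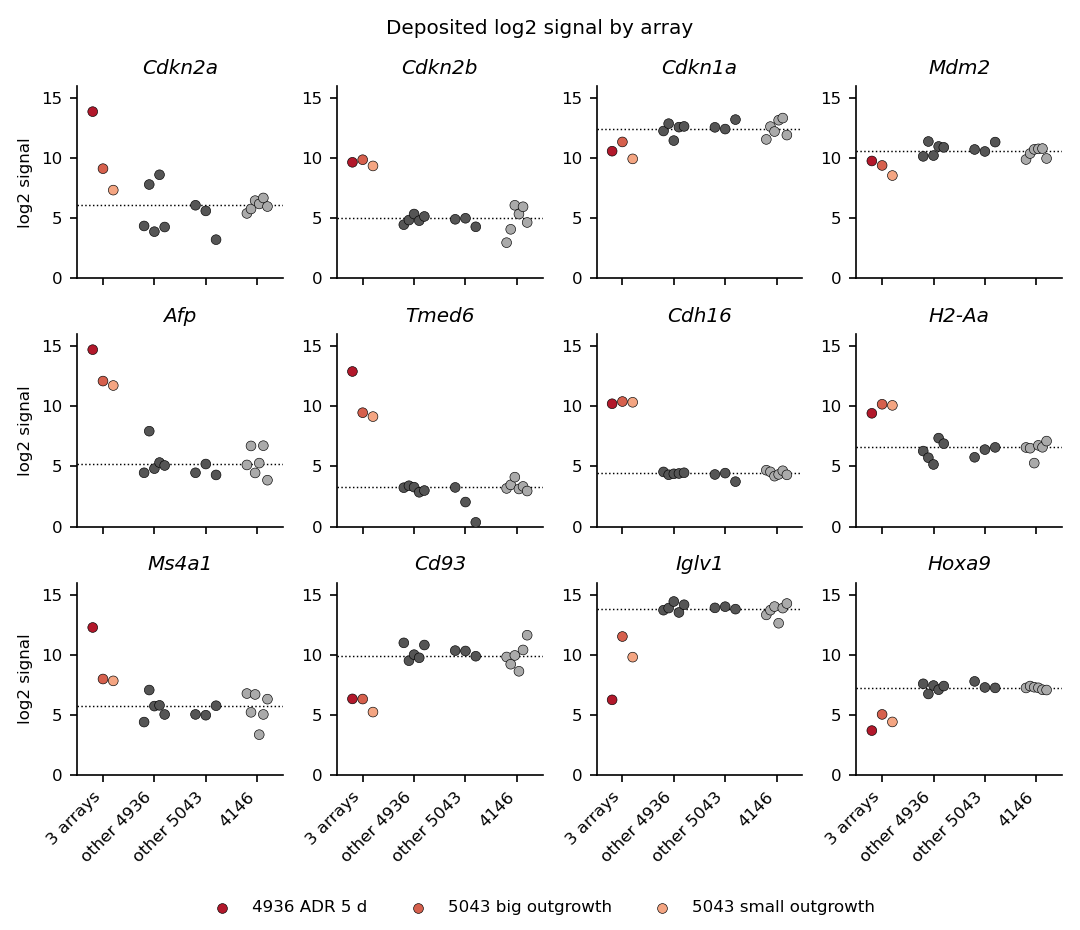
Deposited log2 signal (y axis) of 12 genes on the 3 arrays (coloured), the other arrays of 4936 and of 5043 (dark grey) and the arrays of 4146 (light grey), 1 point per array. The dotted line is the median that every lymphoma shares. Cdkn2b, Cdh16 and Cd93 separate the 3 arrays by several units, and Cdkn2a spreads from 7.34 to 13.87 on them.

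By number, the p53 targets, the longest list, had the most members on the low side. Of 37 measured, 5 were lower on all 3 arrays and 0 higher, beside 0.657% and 1.75% of all autosomal genes, and 20 lay below the lymphoma's median on all 3, as did 1671 of the 17517 autosomal genes. The list's median deviation was -0.51 on 4936 ADR 5 d, -0.85 on 5043 big outgrowth and -0.91 on 5043 small outgrowth, against -0.27 to 0.38 on the 8 other arrays and 0.00 for all genes. When all probe sets of a gene were averaged, 2 members were counted as lower. The early B-lineage list had 4 of 23 lower by the main rule and 4 with averaged probe sets. With the baseline from the other arrays of the lymphoma, 6 p53 targets and 7 early B-lineage genes were lower. The rank of the p53 list thus depended on its length and on the processing. The list was chosen with earlier results of these data known, so its direction is no independent evidence.

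Cdkn1a, the gene of the CDK inhibitor p21, had 10.58, 11.34 and 9.94. In 4936 the other arrays had 12.87 after ADR+4-OHT, 11.46 in the ADR outgrowth, 12.58 in the big and 12.64 in the small outgrowth and 12.26 untreated, and in 5043 they had 12.42 after ADR, 13.20 after ADR+4-OHT and 12.56 untreated. Within each lymphoma the arrays that stood apart were the lowest, which in 5043 follows from the counting rule. In 4936 the ADR outgrowth was the next lowest. A further probe set of Cdkn1a gave deviations of -1.80, -0.98 and -2.52. Its deposited signal on the 3 arrays stayed above 4.86, the midpoint of all deposited values, which is not a measure of absolute level.

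Mdm2, the ubiquitin ligase that p53 induces and is degraded by, was not counted, since its deviations were -0.79, -1.16 and -2.0. Its levels were 9.76, 9.39 and 8.55, against 10.14 to 11.38 on the others of 4936 and 10.55 to 11.33 on those of 5043, with no overlap. A further probe set of Mdm2 at 8.45, 8.20 and 7.34 passed the rule, with a smallest deviation of -1.17. Dcxr, a carbonyl reductase, had 8.34, 7.91 and 7.17, against 9.31 to 10.68. Ercc5, a nuclease of excision repair, had 7.90, 7.64 and 7.61, against 8.77 to 10.32. Plk2, a kinase of the stress response, had 7.94, 6.59 and 4.56, against 8.34 to 10.26, and was the target that differed most on 5043 small outgrowth. Ak1, an adenylate kinase, had 6.03, 5.42 and 4.10, and overlapped the others of 4936 (5.76 to 8.54).

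Some targets were low on the arrays of 5043 and less low or not low on 4936 ADR 5 d, a difference that was not tested. Ccng1, a cyclin induced by p53, had 10.93 and 10.69 on big and small outgrowth of 5043, against 12.33 to 12.93 on its other arrays. On 4936 ADR 5 d it had 12.10, within the 12.06 to 13.20 of the others of 4936. Another Ccng1 probe set was below the others of 4936 there (10.39, against 10.53 to 11.49), and a further one within them (10.47, against 9.56 to 11.58). Gadd45a and Perp lay on the high side on 5043 and were picked out after their values were seen. Gadd45a, a stress sensor, had 10.99 and 10.28 there, against 7.49 to 7.54, and Perp, a desmosomal protein, had 3.58 and 5.44, against 2.81 to 2.92. None of 19 measured regulators of p53 and damage kinases was counted in either direction. Trp53 itself was not analysed here.

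**Figure D5:**
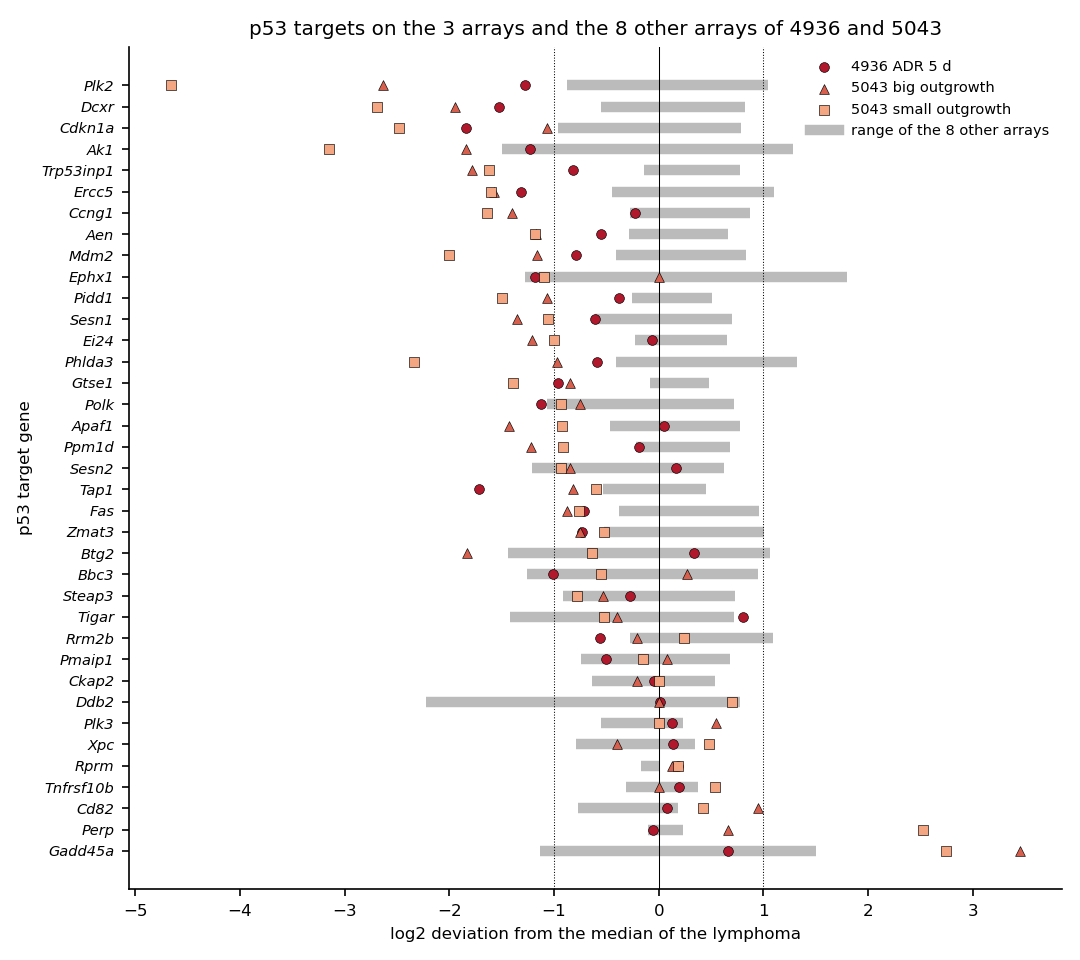
Deviation (x axis, log2) of the 37 measured p53 targets on the 3 arrays (coloured symbols), with grey bars for the range over the 8 other arrays. Most symbols lie left of 0, those of 5043 further than those of 4936 ADR 5 d, and Gadd45a and Perp lie to the right on 5043.

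Genes of the B lineage lay on both sides. Of 23 measured early B-lineage genes 4 were lower and 1 higher, beside 0.657% and 1.75% of all autosomal genes, and 9 lay below the median on all 3 arrays and 2 above it. Cd93, a surface marker of immature B cells and the leading lower gene of the whole table, had 6.32, 6.30 and 5.22, against 9.50 to 10.98. Rag1, a subunit of the V(D)J recombinase, had 3.34, 4.99 and 4.25, against 4.9 to 8.04 on the others of 4936 and 6.77 to 8.40 on those of 5043. Il7r, the receptor for interleukin 7, had 4.45, 6.11 and 4.89, against 7.01 to 9.22, and Myb, a transcription factor of progenitors, had 8.54, 9.75 and 9.94, against 10.33 to 11.94. Lef1, a partner of beta-catenin, was the higher one, with 10.04, 10.70 and 10.66, against 7.70 to 8.40.

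Of 26 measured mature B-lineage genes 5 were higher and 1 lower, beside 1.75% and 0.657% of all autosomal genes. H2-Aa, a chain of MHC class II, had 9.42, 10.18 and 10.08, against 5.16 to 7.36. Ms4a1, which encodes CD20, had 12.26, 7.97 and 7.82, against 4.39 to 7.06. H2-DMa, which loads peptide on class II, had 7.81, 9.40 and 9.26, against 5.30 to 6.85. Fcmr, the receptor for IgM, had 10.94, 9.28 and 8.42, against 6.16 to 8.31 on the others of 4936 and 4.43 to 6.90 on those of 5043. Blk, a kinase of the B-cell receptor, was the other higher gene (smallest deviation 1.44), and Cxcr5, a homing receptor of follicular B cells, the lower one (6.47, 6.28 and 5.28, against 8.01 to 9.70). The list medians were 0.49, 0.16 and 0.16, against -0.52 to 0.26 on the 8 others.

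Further counted lineage genes were few, and the shares over all autosomal genes were 1.75% higher and 0.657% lower. Mef2b, a transcription factor of germinal centres, was the only one of 8 in its list (8.49, 8.01 and 7.54, against 5.89 to 6.24). Cd2, an adhesion molecule of T and early B cells, was the only one of 24 in the T and NK cell list (4.80, 4.75 and 4.9, against 6.82 to 8.74). None of 11 plasma cell genes was counted, but Jchain, which joins secreted antibodies, deviated by 4.32 on 4936 ADR 5 d and by 0.49 and 0.00 on 5043. Of 15 stem and progenitor genes Mecom was higher and Hoxa9 lower.

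Hoxa9, a homeobox factor of blood progenitors, had 3.68, 5.03 and 4.40, against 6.73 to 7.77. Its neighbours Hoxa10 (2.55, 4.45 and 3.75, against 5.92 to 6.94) and Hoxa11 (4.45, 5.88 and 5.25, against 6.01 to 7.97) were lower too. They were the other lower genes among 9 measured in the Hoxa cluster, beside 0.657% of all autosomal genes, and were seen only after the values were known. Gfi1, a repressor needed by blood stem and lymphoid cells, had 4.94, 5.32 and 4.35, against 7.66 to 9.40. The remaining leading lower genes include Plod2, a collagen-modifying hydroxylase (5.40, 5.51 and 3.82, against 7.89 to 10.08), Pla2g4a, which releases arachidonic acid (4.71, 5.28 and 4.55, against 7.43 to 8.73), and Rap2b, a small GTPase (7.0, 7.21 and 6.53, against 8.50 to 9.83). The others, with smallest deviations between -3.22 and -2.22, were 6430710C18Rik, Cracdl, Hmgcll1, Ankrd6, Mei4, Gm6958, Kif26a and Diras2.

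The oncogenes of the model were also read. Myc had 10.94, 11.38 and 11.68, against 11.59 to 12.53 on the others of 4936 and 11.72 to 12.09 on those of 5043, and was not counted, with deviations of -0.78, -0.34 and -0.04. The Bcl2 probe set with the highest signal had 5.61, 6.95 and 6.94, against 7.58 to 9.52, and was counted as lower. The other 4 Bcl2 probe sets were lower too, with smallest deviations between -0.60 and -0.36, under the threshold. Bcl2 was given by retrovirus to all cells, and whether these probe sets see the transduced transcript was not tested. Bcl2l2 was the other lower gene of 16 in the apoptosis list, beside 0.657% of all autosomal genes.

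Over all 31 lists, 545 measured genes were autosomal and 31 of them were counted in either direction (5.69%), against 2.4% of all autosomal genes. In 18 lists none was, which for lists of this length is near the share over all genes, among them mitosis (24 measured), DNA replication (25), ribosome biogenesis and Myc targets (21), interferon response (19), senescence secretory genes (27) and heterochromatin (23). The mitosis medians were -0.20, 0.02 and 0.00, inside the -1.78 to 0.48 of the 8 others. The Wnt and TGF-beta list had 3 higher members of 24, Lef1, Tcf7l2 and Id3, an inhibitor of basic helix-loop-helix factors (10.09, 10.31 and 10.32, against 6.71 to 8.34). In the lysosome list Ctsl, a cathepsin, was the only one of 19 (12.52, 12.52 and 12.07, against 8.44 to 10.99).

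Markers of macrophages and fibroblasts set the 3 arrays apart from each other. The median of 22 macrophage genes was 0.96 on 4936 ADR 5 d, 0.05 on 5043 big outgrowth and -0.41 on 5043 small outgrowth, against -0.60 to 0.72 on the 8 others, and 0 of 22 were counted. Lyz1, a lysozyme of myeloid cells, had 15.31, 8.58 and 3.46, against 4.83 to 13.84 on the others of 4936 and 3.67 to 9.09 on those of 5043. The summed log2 level of the list ran from 105.9 to 175.4 on the 3 arrays and from 104.6 to 152.1 on the 8. The median of 18 fibroblast and matrix genes was 1.01, 0.52 and -0.01, against -0.31 to 1.42, the 1.42 being the big outgrowth of 4936, and 0 of 18 were counted. Their sum ran from 86.4 to 113.4, against 78.4 to 123.3. The part of such cells in the counted genes was not tested.

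Some genes stood out on 1 lymphoma only. In 39 genes 4936 ADR 5 d deviated by at least 2 and both arrays of 5043 by less than 0.5. They include Ms4a6b (3.46), the interferon-induced Usp18 (3.24) and the collagen gene Col3a1 (2.84). In 26 genes both arrays of 5043 deviated by at least 2 one way and 4936 ADR 5 d by less than 0.5. They include Pigr, which carries polymeric antibody across epithelia (4.29 on big and 4.48 on small outgrowth), and Zeb2, a repressor of epithelial genes (-2.91 and -3.70). In 16 genes 4936 ADR 5 d and both arrays of 5043 deviated by at least 1 in opposite directions.

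Big and small outgrowth of 5043 differed from each other in fewer genes than each did from untreated cells. Big minus small outgrowth differed by at least 1 in 396 genes in 5043, 924 in 4936 and 526 in 4146. Big outgrowth minus untreated differed in 1959 genes in 5043, against 673 in 4936 and 1120 in 4146. For small outgrowth minus untreated the numbers were 1461, against 358 and 679. ADR 5 d minus untreated differed in 2598 genes in 4936, against 405 in 4146 and 171 in 5043. With 1 array per condition and lymphoma these counts have no replicate check.

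The values of the same conditions in the other lymphomas are given side by side, without a test. Untreated Afp in 4936 and 5043, Cdkn2a in 4936 and Cdkn2b in 4146 and 4936 lay below 4.86, so their differences understate the change if that signal is background. ADR 5 d minus untreated was 10.25 in 4936 for Afp, against 1.58 in 4146 and 0.73 in 5043. For Cdkn2a it was 9.51 in 4936, against 0.37 in 4146 and -0.47 in 5043, and for Cdkn1a -1.68, against 1.07 and -0.14. Big outgrowth minus untreated was 4.96 in 5043 for Cdkn2b, against 2.99 in 4146 and 0.33 in 4936, and for Plk2 -2.63, against 2.5 and 1.92. Small outgrowth minus untreated was -2.62 in 5043 for Cdkn1a, against 0.36 in 4146 and 0.38 in 4936. For the p53 target list the median was -0.26 in 4936 for ADR 5 d, against 0.31 and 0.07 in 4146 and 5043, and -0.88 in 5043 for big outgrowth, against 0.53 and 0.23 in 4146 and 4936. These differences share the untreated array within a lymphoma.

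Part of the counted genes deviated in the same way on other arrays. Of the 306 higher genes, 44 deviated by at least 1 on the big outgrowth of 4936 (14.4%), against 2.13% of all autosomal genes. On its ADR+4-OHT 5 d array 14 did so (4.58%), against 1.67%. On its small outgrowth 1 did (0.327%), against 0.662%. On its ADR outgrowth and untreated arrays 0 did (0.0%), against 1.56% and 0.685%. No value of 4146 entered the deviations by which genes were counted. Its values did enter the choice of probe set, which was the brightest on average over all arrays with values. The arrays that stood apart entered that average too, so 4146 is not a fully separate comparison. On the ADR+4-OHT 5 d array of 4146, 38 higher genes deviated by at least 1 (12.4%), against 2.31% of all genes. On its big outgrowth 26 did so (8.5%), against 1.68%. On its ADR outgrowth 16 did so (5.23%), against 1.42%. On the other 3 arrays of 4146 2 to 7 did (0.654% to 2.29%), against 0.217% to 0.782%. Of the 115 lower genes, 15 did so on ADR+4-OHT 5 d of 4146 (13.0%), against 1.88% of all genes. On its ADR outgrowth 10 did (8.7%), against 0.605%, and on its untreated array 9 (7.83%), against 1.3%. On its ADR 5 d, big and small outgrowth arrays 1, 0 and 2 did (0.87%, 0.0% and 1.74%), against 0.451%, 0.28% and 0.674%. On the others of 4936 0 to 4 did (0.0% to 3.48%), against 0.582% to 1.7%. These shares were not tested. Counted genes lay on every autosome, from 0.986% of the genes of chromosome 7 to 3.76% of those of chromosome 19.

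Conditions were tested on the 14 arrays without the 3, in a limma fit of all 6 groups with lymphoma as a block over 11121 genes. All comparisons share the untreated arrays, and 8 of the 14 arrays also set the medians by which genes were counted, so these tests are not independent of the counting. ADR+4-OHT 5 d against untreated (n = 3 each) had 210 genes higher (1.89% of those tested) and 276 lower (2.48%) at an adjusted p under 0.05. Big outgrowth (n = 2) had 31 higher (0.279%) and 3 lower (0.027%). ADR 5 d and small outgrowth (n = 2 each) had 0 (0.0%) by limma, and 0 with a variance trend and robust fitting, with 536 and 858 genes at an unadjusted p under 0.05. Without lymphoma 4146 the ADR 5 d count was 5, from 1 array that was assumed to vary like the other groups. Of the genes counted on the 3 arrays, 156 of the 306 higher and all 115 lower ones were bright enough to be tested.

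Afp was not called in any of the 4 comparisons by limma, with an adjusted p of 0.941 for ADR 5 d (difference 1.58, SE 0.91) and 0.579 for ADR+4-OHT. Cdkn2a was not called either, with 2.04 (SE 1.27) for big outgrowth and an adjusted p of 0.586. Cdkn1a had 0.64 (SE 0.45) for ADR+4-OHT at an adjusted p of 0.46 and 0.98 (SE 0.53) for big outgrowth at 0.54. The Cdkn1a differences were above 0 in all 4 comparisons, against deviations below 0 on the 3 arrays. Cdkn2b and Tmed6 were too dim on the 14 arrays to be tested.

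Among the 156 tested higher genes 2 rose in big outgrowth against untreated by limma (1.28%), against 0.278% of all autosomal genes tested. They were Anxa1, an annexin that binds membranes, and Rhoc, a GTPase of cell shape. The Anxa1 difference was 4.40 (SE 0.67, adjusted p = 0.0384) and that of Rhoc 3.64 (SE 0.58, adjusted p = 0.048), and both were higher in 2 of 2 lymphomas. Of these 2 big outgrowth arrays 1 was that of 4936, the array nearest to the 3 for several leading genes. No fit left out that array alone. Anxa1 had 12.94, 11.76 and 11.50 on the 3 arrays, against 11.65 on the big outgrowth of 4936 and 4.94 to 7.65 on the other 7. The count of 34 ran from 12 to 91 under other probe set rules and filters. With the 3 arrays included both calls ended, at differences of 5.29 and 3.79 and an adjusted p of 0.15 and 0.066. The count for big outgrowth was 75 without lymphoma 4146, 2 without 4936 and 0 without 5043, and in the first 2 of these fits big outgrowth was 1 array, assumed to vary like the other groups.

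In ADR+4-OHT 5 d against untreated, 7 of the 156 tested higher genes rose by limma (4.49%), against 1.81% of all autosomal genes tested: Tent5c, a poly(A) polymerase of B-lineage cells (2.66, SE 0.54, adjusted p = 0.0329), Hsd17b11, Plpp1, Pxn, Rasgrf2, Shtn1 and Snx24. Of the 115 genes counted as lower on the 3 arrays 2 rose (1.74%), a share near that of all genes. They were Ak1 (1.61, SE 0.35, adjusted p = 0.0413) and Camk2a (0.95, SE 0.21, adjusted p = 0.0418). All 9 were higher in 3 of 3 lymphomas. For Tent5c the differences were 4.40, 1.32 and 2.24 in 4146, 4936 and 5043. All 9 calls ended with the 3 arrays in the fit, at the same differences and adjusted p-values from 0.23 to 0.587, and the count of 486 was 0 without lymphoma 4936 or 5043 and 796 without the ADR+4-OHT 5 d array of 4146.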

How the data were processed

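Total RNA was labelled by the one-cycle protocol, per the labels. The authors deposited log2 signal values of 45101 probe sets, with RMA and Partek named in the submitters' processing notes and order and settings not given in the sources used here. The median of a probe set is equal in all lymphomas (tolerance 1e-06), so levels were read as distances from that shared median, and no order of absolute levels between lymphomas was drawn. Of 18 value columns 1 was empty.

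Probe sets with 1 gene symbol (34958) were used, 932 with several were left out, and 9211 had none. For each of 18194 genes the probe set that was brightest on average over all arrays with values was kept. Positions come from the GRCm38.p6 gene table, and the sex chromosomes were left out of the counts. No filter on low values was applied to deviations. The number of arrays limits the precision.

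Tests used limma 3.58.1 in R 4.3.3 on the 14 arrays without the 3, with the 6 groups and lymphoma as terms, 6 residual degrees of freedom, genes with a mean of at least 4.86, 2-sided p-values adjusted by Benjamini-Hochberg, and a threshold of 0.05. Same-numbered arrays come from 1 lymphoma, per the labels, which is why lymphoma was the block. Whether arrays of a group are separate cultures beyond the lymphoma is not given, and the scripts were tested on simulated data. Python 3.11.15 and pandas 2.3.3 did the rest.

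The arrays, the 31 lists (624 entries, 618 genes) and the tests were chosen with earlier results of these data known. The text names Myc, Bcl2, Cdkn1a, Cdkn2a, Cdkn2b, Mdm2 and Afp, the 15 genes at the top in each direction, up to 4 counted members per list and direction or the 2 nearest, up to 6 immunoglobulin genes and sex-linked genes. Genes named outside this rule, such as Anxa1, were picked with their values in view. Alternatives changed the threshold, baseline, probe set, filter, scaling and arrays used, and the baseline without the big outgrowth of 4936 was added after seeing the data.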

Additional observations from a re-analysis of the deposited data

How the results depend on the processing

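The counts of 306 higher and 115 lower genes followed the threshold and the baseline. At a deviation of at least 2 they were 153 and 23, and at 0.5 they were 536 and 335. With the baseline from the other arrays of the lymphoma 186 genes were lower, and with the untreated array as baseline 202. Counting every probe set gave 497 higher, and leaving out genes whose mean was below 4.86 gave 202 higher. Leaving out 1 of the 3 arrays gave 332 to 456 higher and 121 to 269 lower, more because fewer arrays have to agree. Quantile normalization shared 296 of the 306 and 108 of the 115, and a baseline without the big outgrowth of 4936, added after seeing the data, shared 303 and 111. Of 31 list genes counted, the baseline from other arrays gave 43 and the mean over probe sets 24. The p53 targets counted as lower were 2 with the mean over probe sets. Over 36 named genes and 6 alternatives no direction turned, and Bcl2 alone left the count, with the mean over probe sets. The ADR+4-OHT 5 d count of 486 was 308 with the mean over probe sets and 796 without the ADR+4-OHT 5 d array of 4146, and ran from 0 to 545 leaving out 1 lymphoma. The big outgrowth count of 34 was 72 without the block for lymphoma, 91 without the filter and 12 with the mean over probe sets, and ran from 0 to 75. The ADR 5 d count of 0 became 5 without lymphoma 4146, and ran from 0 to 5, with 1 array in the arm where 1 lymphoma was left out of 2. The cause of these moves was not tested, and fewer arrays or genes enter where some are left out. Without the block the ADR+4-OHT 5 d count was 723, and a signal near background limits the dim genes.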
